A study of Homo sapiens with 49 samples.

Results

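The binding of c-JUN (JUN) in T-47D cells was mapped by chromatin immunoprecipitation and sequencing (ChIP-seq) after vehicle or estradiol. All regions of the 2 deposited T-47D JUN peak lists were taken, 28703 from the library labelled DMSO and 24885 from the library labelled E2, which made 53588 of the 528044 regions in the 45 lists of the whole series. Each region was classed as shared, DMSO-only or E2-only by whether it overlapped a region of the other list by at least 1 bp. T-47D is a luminal breast ductal carcinoma line that carries the estrogen receptor, and no genetic change was named for any library used here. Cells had been kept in hormone-depleted medium and then received the vehicle DMSO or 17β-estradiol (E2) at 10 nM, for 1 h in the JUN libraries. The libraries of histone marks used below came from a longer treatment, so comparisons of JUN with these marks were not matched in time. There was 1 JUN library per treatment, so no test of the treatment on JUN was possible, and all binomial intervals given below are exact 95% intervals that cover counting error only. RNA polymerase II (Pol2) from the same line, treatments and time had 2 libraries per treatment. Nothing states that these were separate cultures, so a p-value from them measures only the spread between these samples.

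JUN is a basic leucine zipper protein that pairs with FOS, JUN or ATF family members to form AP-1, a transcription factor that binds a short palindrome, mostly at enhancers. AP-1 genes are induced within minutes by growth signals, and in breast cells the estrogen receptor can be held at AP-1 sites without touching DNA itself. Pol2, by contrast, is found at start sites and along the bodies of transcribed genes.

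The libraries were set against their labels before anything else. The AP-1 motif TGANTCA (N is any base, read on both strands) lay within 100 bp of the summit in 4.98% (4.73 to 5.23) of the regions labelled DMSO and in 3.41% (3.19 to 3.64) of those labelled E2. The JUN lists of Ishikawa, an endometrial adenocarcinoma line, held it in 22.8% (21.4 to 24.1) under DMSO and 17.1% (16.6 to 17.7) under E2, while the 4 T-47D Pol2 lists held it in 4.62% to 6.02% and all 20098 protein-coding start sites in 3.91%. The DMSO list therefore held the motif within the range of the Pol2 lists, and the E2 list somewhat below Pol2 regions and start sites. Both T-47D JUN lists held it far less often than the Ishikawa lists, and are called JUN below only because they are so labelled. Their summit windows had a median G and C content of 63.2% (DMSO) and 67.2% (E2), against 55.2% and 59.2% in Ishikawa. The part of composition in the gap between the lines was not tested. The treatment labels were set against Pol2 as well. Of 934 Pol2 regions gained with E2, 26.9% were in the JUN list labelled DMSO and 13.6% in the one labelled E2. The DMSO list also held more of the lost regions and of those in all 4 Pol2 lists, and without Pol2 DMSO replicate 1 the gained shares were 72.1% and 68.1%. Labels were kept as given, and "DMSO" and "E2" stand for the libraries so labelled.

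Markers of the line were present in both libraries. All 18 luminal breast genes, ESR1, FOXA1 and GATA3 among them, had a JUN region within 250 bp of a start site in the DMSO list and 17 in the E2 list. Of 12 basal and mesenchymal genes, 4 and 5 had one. These were VIM, ZEB1 and FOXC1 in both lists, LAMB3 in the DMSO list and EGFR and SNAI2 in the E2 list, with none at KRT5, KRT14 or TP63. Of 9 endometrial and Mullerian genes 2 had one in each list, WT1 and MSX1, with none at PAX8.

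Sequences from 8 regions are given because they show the motifs that the comparisons turn on. The first 3 are 95 bases around the AP-1 motif (capitals) in the strongest region of each class that held it away from start sites, and the other 5 are 101 bases around an estrogen response element (ERE), GGTCANNNTGACC (capitals), to which the estrogen receptor binds. The ERE regions were chosen after seeing the data, and the 2 E2-only ones are all that this class had. All are read 5′ to 3′ on the plus strand of GRCh37, the build of the files (hg19).
shared, AP-1, 5393 bp from TCF3, chr19:1657879-1657973: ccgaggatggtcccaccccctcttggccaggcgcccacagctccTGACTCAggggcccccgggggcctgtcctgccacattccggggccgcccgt
DMSO-only, AP-1, 132334 bp from CPXCR1, chrX:88142009-88142103: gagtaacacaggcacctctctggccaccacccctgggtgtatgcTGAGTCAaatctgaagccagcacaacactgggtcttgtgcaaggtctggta
E2-only, AP-1, intron of KDM4B, chr19:5006893-5006987: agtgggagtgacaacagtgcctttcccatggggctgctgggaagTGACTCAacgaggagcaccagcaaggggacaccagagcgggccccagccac
shared, ERE, 1168 bp from CISH, chr3:50642653-50642753: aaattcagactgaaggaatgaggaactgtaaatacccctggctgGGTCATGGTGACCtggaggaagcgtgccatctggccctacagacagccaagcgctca
DMSO-only, ERE, 13320 bp from A4GALT, chr22:43130584-43130684: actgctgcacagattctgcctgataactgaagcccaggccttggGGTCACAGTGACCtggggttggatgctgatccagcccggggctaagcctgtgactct
DMSO-only, ERE, intron of PRKCE, chr2:45979838-45979938: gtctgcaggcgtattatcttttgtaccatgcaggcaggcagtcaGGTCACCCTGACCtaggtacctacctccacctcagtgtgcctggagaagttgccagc
E2-only, ERE, 1060292 bp from CRIM1, chr2:35522629-35522729: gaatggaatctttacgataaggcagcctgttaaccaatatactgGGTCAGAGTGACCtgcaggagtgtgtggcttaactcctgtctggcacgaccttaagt
E2-only, ERE, 347 bp from MANEAL, chr1:38259117-38259217: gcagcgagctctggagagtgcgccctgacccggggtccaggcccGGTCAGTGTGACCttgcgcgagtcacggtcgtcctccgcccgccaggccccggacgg

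These 8 regions differed in strength by class. Fold enrichment, the ratio of ChIP pileup to local background at the summit, was 47.1 under DMSO and 67.6 under E2 near TCF3 and 27.2 and 29.7 near CISH. It was 32.8 in the DMSO-only region near CPXCR1, 33.3 near A4GALT and 27.5 in PRKCE, a protein kinase C gene. The E2-only regions reached 18.3 in KDM4B, 10.2 near CRIM1 and 10.0 near MANEAL. The AP-1 motifs began at -84 bp from the summit near TCF3, -67 near CPXCR1 and -80 in KDM4B, so these printed bases stop short of the summit. The EREs began at -55 bp near CISH, -6 in PRKCE, 44 near CRIM1 and -11 near MANEAL. Near A4GALT the ERE began 4 bp past the summit, and Pol2 covered the region in both E2 libraries and in neither DMSO library. In PRKCE it was covered by Pol2 in 1 E2 library alone. A DMSO-only ERE region near KCNU1, stronger than that in PRKCE at 30.8 and without a printed sequence, was in Pol2 of DMSO replicate 1 and both E2 libraries.

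Most JUN regions were found under both treatments. Of the DMSO list, 20591 regions (71.7%, 71.2 to 72.3) were shared and 8112 were DMSO-only, and of the E2 list 19146 (76.9%, 76.4 to 77.5) were shared and 5739 E2-only. Merging both lists gave 32459 regions, of which 25.0% were DMSO-only and 17.7% E2-only. The lists covered 16.7 Mb under DMSO and 17.6 Mb under E2, so that the E2 list had 0.867 times as many regions and 1.05 times the length. Shared regions were wide, with a median of 559 bp, against 283 bp for DMSO-only and 325 bp for E2-only. Their median fold enrichment was 12.3 in the DMSO list and 16.6 in the E2 list, against 8.65 for DMSO-only and 8.95 for E2-only regions.

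The pileup behind each region, the number of overlapping fragments at the summit, was recovered as a whole number from its fold enrichment and p-value in all regions of both lists. It ran from 14 to 377 with a median of 50 under DMSO, and from 13 to 430 with a median of 55 under E2. DMSO-only regions had a median of 36 and E2-only regions 27, while shared regions had 63 and 76. The lowest background shared by at least 10 regions was 1.04 fragments under DMSO and 0.916 under E2 (values equal within 0.2% counted as shared). The number of reads behind each list is not given in the lists.

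Among shared regions fold enrichment was higher in the E2 library in 83.3% of pairs, with a median log2 ratio of 0.47 and 89.1% of pairs within 2-fold. The ratio moved with base composition. It had a median of -0.07 in 563 pairs whose 201 bp summit window held under 55% G and C, 0.29 in 8813 pairs between 55% and 65%, and 0.59 in 11215 pairs at 65% or more. The median G and C content was 65.7% in shared, 56.2% in DMSO-only and 66.7% in E2-only windows, so the classes differed in composition in the same direction. The part of composition in the differences between classes given below was not tested, and values within a narrower range of it are set beside them where they change the picture.

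The strongest shared regions were promoters of active genes. By the lower of the 2 fold enrichments they lay at the start sites of RPS15, a ribosomal protein (66.1 under DMSO and 90.7 under E2), ID3, an inhibitor of basic helix-loop-helix factors (63.1 and 76.1), RWDD1 (60.9 and 84.7), XBP1, the transcription factor of the unfolded protein response (58.4 and 78.4), and PLXNB2, a semaphorin receptor (58.3 and 58.8). All 5 were in all 4 Pol2 lists and the H3K4me3 list, and none held the AP-1 motif. The strongest DMSO-only region lay in an intron of AOPEP, an aminopeptidase gene (chr9:97545324-97545937), at 56.3 with a pileup of 204. It was in all 4 Pol2 lists and in the list of the histone demethylase LSD1 under E2. The next, at 52.0, lay in an exon of CD9, a tetraspanin gene (chr12:6344379-6345157), and was in 3 Pol2 lists and the same LSD1 list. The strongest E2-only regions were weaker than these, led by the start site of ANO7 (chr2:242156922-242157321) at 22.5 with a pileup of 47.

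The classes differed in their place along genes. Shared regions lay within 250 bp of a transcript start in 56.4% (55.7 to 57.1) of cases, DMSO-only regions in 12.96% (12.2 to 13.7) and E2-only regions in 29.3% (28.2 to 30.5). Gene bodies (exons and introns away from starts) held 32.2% (31.5 to 32.8), 60.5% (59.4 to 61.5) and 56.7% (55.4 to 58.0). Within them the division differed, since 45.7% of DMSO-only regions were intronic and 14.8% exonic, against 32.1% and 24.6% of E2-only regions. Distal places, neither in a gene nor within 5000 bp past the end of a protein-coding gene, held 7.81% of shared, 18.9% of DMSO-only and 9.39% of E2-only regions. The median distance to the nearest protein-coding start was 234 bp, 5688.5 bp and 1178 bp.

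**Figure D1:**
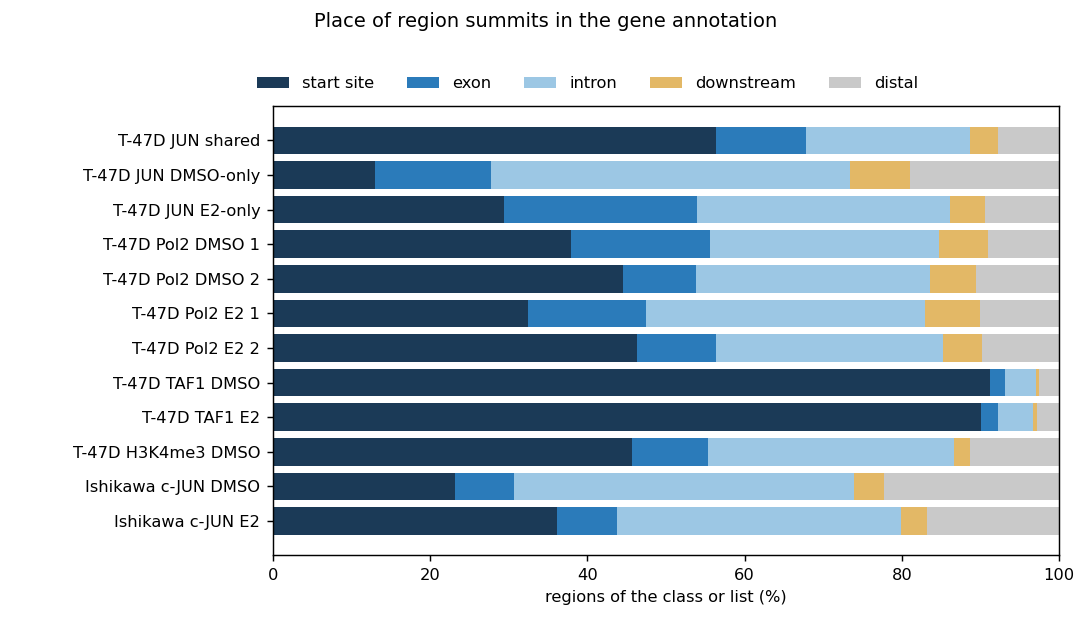
Share of regions (%) by the place of the summit for the 3 JUN classes and for other lists, with start site within 250 bp of a transcript start and downstream within 5000 bp past a protein-coding gene. The 3 JUN classes, which are parts of lists, have 56.4%, 12.96% and 29.3% of regions at start sites. The 4 Pol2 lists, which are whole, have 32.4% to 46.3%. The whole JUN lists, not drawn, have 44.1% (DMSO) and 51.4% (E2). TAF1 lies almost wholly at start sites.

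The whole JUN lists were nearer to the Pol2 lists in place than to TAF1. Start sites held 44.1% of the DMSO list and 51.4% of the E2 list, against 32.4% to 46.3% of the 4 Pol2 lists, 45.6% of H3K4me3 (the mark of active promoters) and 91.2% of TAF1 under DMSO. Gene bodies held 40.2% and 36.5%, against 38.9% to 50.6% for Pol2, 41.0% for H3K4me3 and 5.77% for TAF1, a subunit of the general factor TFIID. The DMSO list and H3K4me3 lay within the Pol2 range on both measures, and the E2 list lay outside it on both. The Ishikawa JUN lists were the more distal, with 22.3% under DMSO and 16.8% under E2 in distal places, against 10.96% and 8.22% in T-47D. Distal places include sequence upstream of genes beyond 250 bp from a start.

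Nearly all shared regions overlapped Pol2. At least 1 of the 4 Pol2 lists held 97.4% of shared, 80.4% of DMSO-only and 74.9% of E2-only regions. For shared and DMSO-only regions the share differed more between Pol2 replicates than between treatments. Shared regions were in 95.5% of cases in DMSO replicate 1, in 51.8% in DMSO replicate 2, in 89.6% in E2 replicate 1 and in 64.6% in E2 replicate 2. For DMSO-only regions the shares in the same order were 66.3%, 24.4%, 71.1% and 25.6%. For E2-only regions they were 70.7%, 3.55%, 38.3% and 8.14%, with only DMSO replicate 1 above 38.3%.

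**Figure D2:**
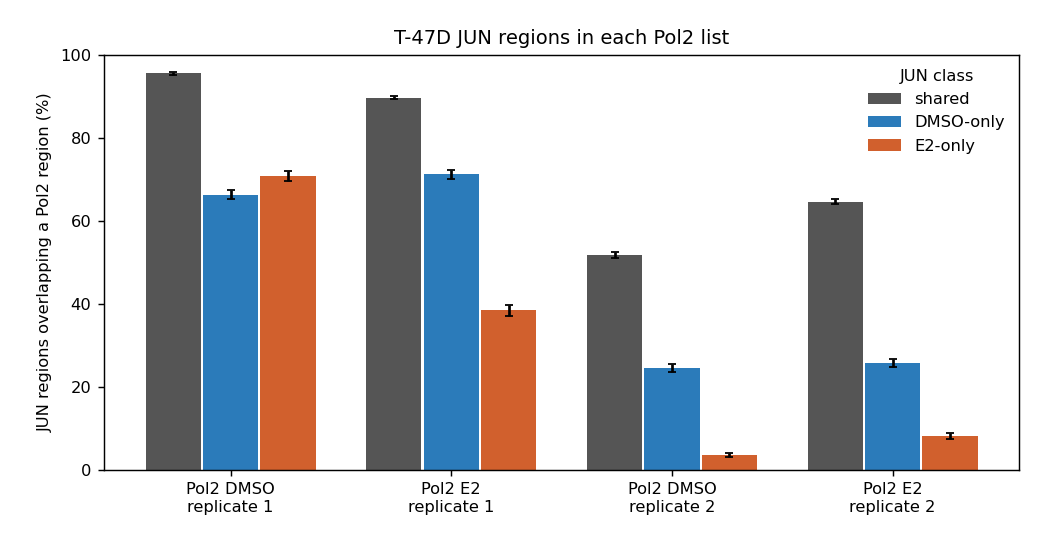
Share of JUN regions (%) of each class that overlap a region of each T-47D Pol2 library, with exact 95% binomial intervals. DMSO-only regions stand at like levels in both treatments of a replicate (66.3% and 71.1%, 24.4% and 25.6%), while E2-only regions are highest in Pol2 DMSO replicate 1 (70.7%, or 40.4% with lists of equal length).

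The classes found under 1 treatment were compared between the Pol2 treatments. For DMSO-only regions the mean share was 45.3% ± 29.6 (SD, n = 2) in the Pol2 libraries labelled DMSO and 48.3% ± 32.2 in those labelled E2, a difference of 3.02 points (exact two-sided permutation p = 0.667). For E2-only regions it was 37.1% ± 47.5 and 23.2% ± 21.4 (n = 2), a difference of -13.9 points (exact two-sided permutation p = 1). The smallest p that 4 libraries allow is 0.333, so neither could have passed a threshold. Within replicate 1 the E2-only share was lower under E2, and within replicate 2, where both shares were low, it was higher. DMSO-only regions were more often in Pol2 under E2 by small steps in both replicates. The Pol2 lists differed in length, from 21291 to 46282 regions, and with 4 lists of equal length the DMSO-only shares were 37.8% and 40.5% in replicate 1 and 24.4% and 23.2% in replicate 2, so the order turned in replicate 2. The E2-only shares became 40.4% and 11.6% in replicate 1 and 3.55% and 6.59% in replicate 2.

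In 3 of the 4 Pol2 libraries the DMSO-only shares fell with G and C content. Of E2-only regions, 64.7% were at 65% G and C or more, and of DMSO-only regions 3.94%. In Pol2 E2 replicate 1, DMSO-only regions were held in 78.6% of cases under 55% G and C, 68.1% between 55% and 65% and 39.7% above, against 50.4%, 42.3% and 35.9% of E2-only regions. In Pol2 DMSO replicate 2 the shares were 36.9%, 17.0% and 2.81% of DMSO-only against 59.8%, 1.89% and 2.64% of E2-only regions, so at the highest content the classes stood at like levels there. Pol2 DMSO replicate 1 moved little, with 65.8%, 66.3% and 70.9% of DMSO-only and 71.8%, 62.8% and 74.7% of E2-only regions. DMSO-only summits also lay nearer to those of Pol2 than E2-only summits did. They were a median of 53 bp from the Pol2 summit of DMSO replicate 1 and 47 bp from that of E2 replicate 1, against 98 and 94 bp for E2-only and 63 and 52 bp for shared regions.

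By covered sequence, values between JUN and Pol2 libraries overlapped those among Pol2 libraries. The Jaccard index (shared over combined base pairs) was 0.579 between the JUN libraries. It was 0.493 and 0.507 between JUN under DMSO and replicate 1 of Pol2 under DMSO and E2, and 0.516 and 0.438 for JUN under E2. With replicate 2 it was 0.313 and 0.409 for JUN under DMSO and 0.258 and 0.359 for JUN under E2. Pol2 libraries gave 0.544 and 0.563 between treatments within a replicate number and 0.272 (DMSO) and 0.406 (E2) between replicates of 1 treatment. With H3K4me3 under DMSO it was 0.316 for JUN under DMSO and 0.350 for JUN under E2, within the range of the values with Pol2. Between T-47D JUN and Ishikawa JUN under E2 it was 0.191 and 0.171.

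JUN was then read at the regions where Pol2 itself changed. A gained Pol2 region was in both E2 lists and neither DMSO list, which 934 regions (1.71% of 54596 merged Pol2 regions) met, and 115 (0.211%) met the reverse. Of the gained regions, 251 (26.9%, 24.1 to 29.8) were in the JUN list labelled DMSO and 127 (13.6%, 11.5 to 15.96) in that labelled E2. In the DMSO list but not the E2 list were 142, and 18 the other way. Of the lost regions 24 (20.9%, 13.9 to 29.4) and 7 (6.09%, 2.48 to 12.1) were held, 18 in the DMSO list alone and 1 in the E2 list alone. Where all 4 Pol2 lists had a region (12295), the JUN lists held 89.3% and 80.3%, so the DMSO list held more of each of these 3 sets. With the DMSO list shortened to the length of the E2 list, it held 22.4% of gained and 16.5% of lost regions. Without Pol2 DMSO replicate 1 the gained regions became 4276, and the JUN lists held 72.1% and 68.1% of them. Without Pol2 DMSO replicate 2 the lost regions became 10634, and the order turned, with 16.8% in the DMSO list and 28.6% in the E2 list.

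Per gene, JUN regions were counted by summits in the gene body. Of 20098 protein-coding genes, 12020 had at least 1, 11304 had a region at a start site in both lists, 314 in the DMSO list alone and 863 in the E2 list alone. A single region was found in 6177 genes under DMSO and 7114 under E2, and 5 or more in 856 and 668, of which 480 genes had them in both. Among 2692 genes with at least 3 regions in a list, 329 (12.2%) had at least 2-fold and 3 regions more in the DMSO list and 158 (5.87%) in the E2 list. That split turned with the measure: by covered length (2-fold and 1000 bp) 138 genes were higher under DMSO and 265 under E2, and with lists of equal length 192 and 310.

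**Figure D3:**
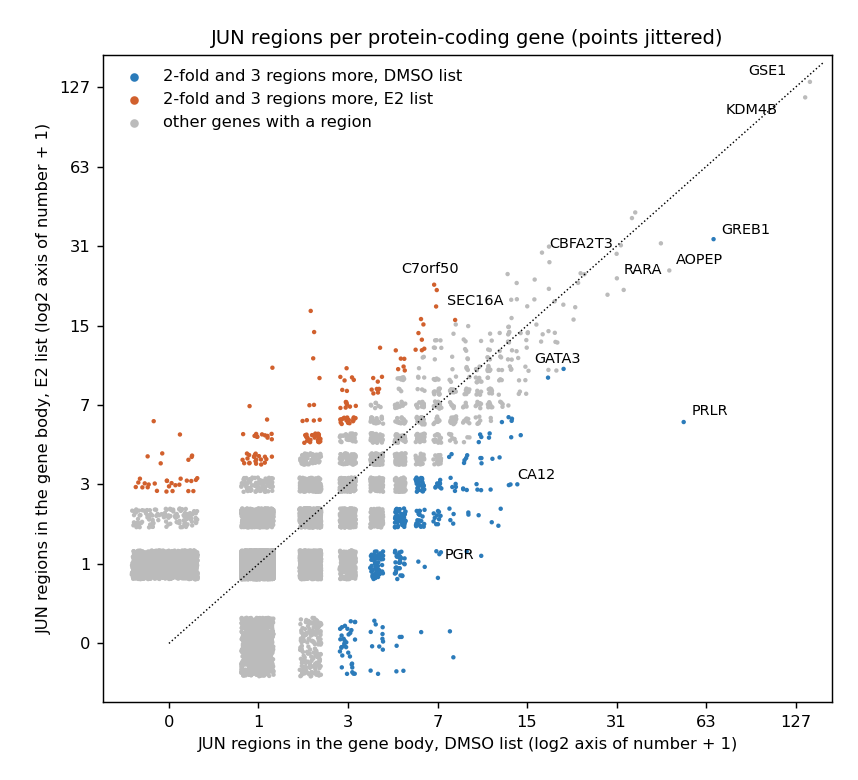
JUN regions in each protein-coding gene body in the DMSO list (x axis) and the E2 list (y axis), on log2 axes of number + 1. GREB1 (67 and 33) and PRLR (53 and 6) lie below the line of equal numbers, SEC16A (7 and 21) and C7orf50 (7 and 22) above it, and KDM4B and GSE1 close to it.

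Among genes, the longest runs of JUN regions were in GSE1 and KDM4B. GSE1 had 142 regions under DMSO and 133 under E2, over a gene body of 507 kb, and KDM4B, a histone demethylase that acts with the estrogen receptor, had 137 and 116 over 184 kb. ZMIZ1 (44 and 32), AOPEP (47 and 25), PIEZO1 (36 and 42), a mechanosensitive channel, SEPTIN9 (35 and 40), PLEC (32 and 31) and LAMA5 (31 and 29), a laminin chain, completed the 10 genes with the most regions, with GREB1 and PRLR. Per length, the covered share of the gene body was like in both lists for GSE1 (23.2% and 23.4%), and higher under E2 for KDM4B (39.0% and 48.3%), PLEC (26.5% and 52.0%) and LAMA5 (35.3% and 57.3%).

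GREB1, an estrogen-induced gene needed for growth of breast cancer cells (chr2:11622467-11782914), had 67 regions under DMSO and 33 under E2, which covered 21.5% and 12.2% of its length. Pol2 had 11 and 2 regions there in the DMSO libraries and 95 in each E2 library. All 67 JUN regions of the DMSO list overlapped Pol2 of E2 replicate 1 and 58 that of E2 replicate 2, against 9 and 2 for the DMSO libraries. Of the 33 regions of the E2 list, 33 and 29 overlapped Pol2 under E2, and 6 and 1 under DMSO. So both JUN libraries, whatever their label, had at GREB1 a part of the regions that Pol2 had after E2, and the DMSO library had more of them. Their median fold enrichment was 10.2 under DMSO and 14.7 under E2, and 1 region of each list held an AP-1 motif.

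PRLR, the prolactin receptor gene (chr5:35048861-35230589), had the largest difference of the 10 genes with the most DMSO-only regions, 53 regions under DMSO and 6 under E2. Its covered share was 12.1% and 1.73%. Pol2 had 132 and 91 regions there under DMSO and 154 and 133 under E2, so the gene carried Pol2 in all 4 libraries, and 53, 50, 52 and 49 of the 53 JUN regions overlapped them in that order. PRLR is poor in G and C (40.8% of its bases, against a median of 52.2% in the 2692 genes). KDM4B (chr19:4969124-5153609) went with GREB1 in Pol2, with 34 and 2 regions under DMSO and 118 and 64 under E2, but had JUN regions evenly in both lists.

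**Figure D4:**
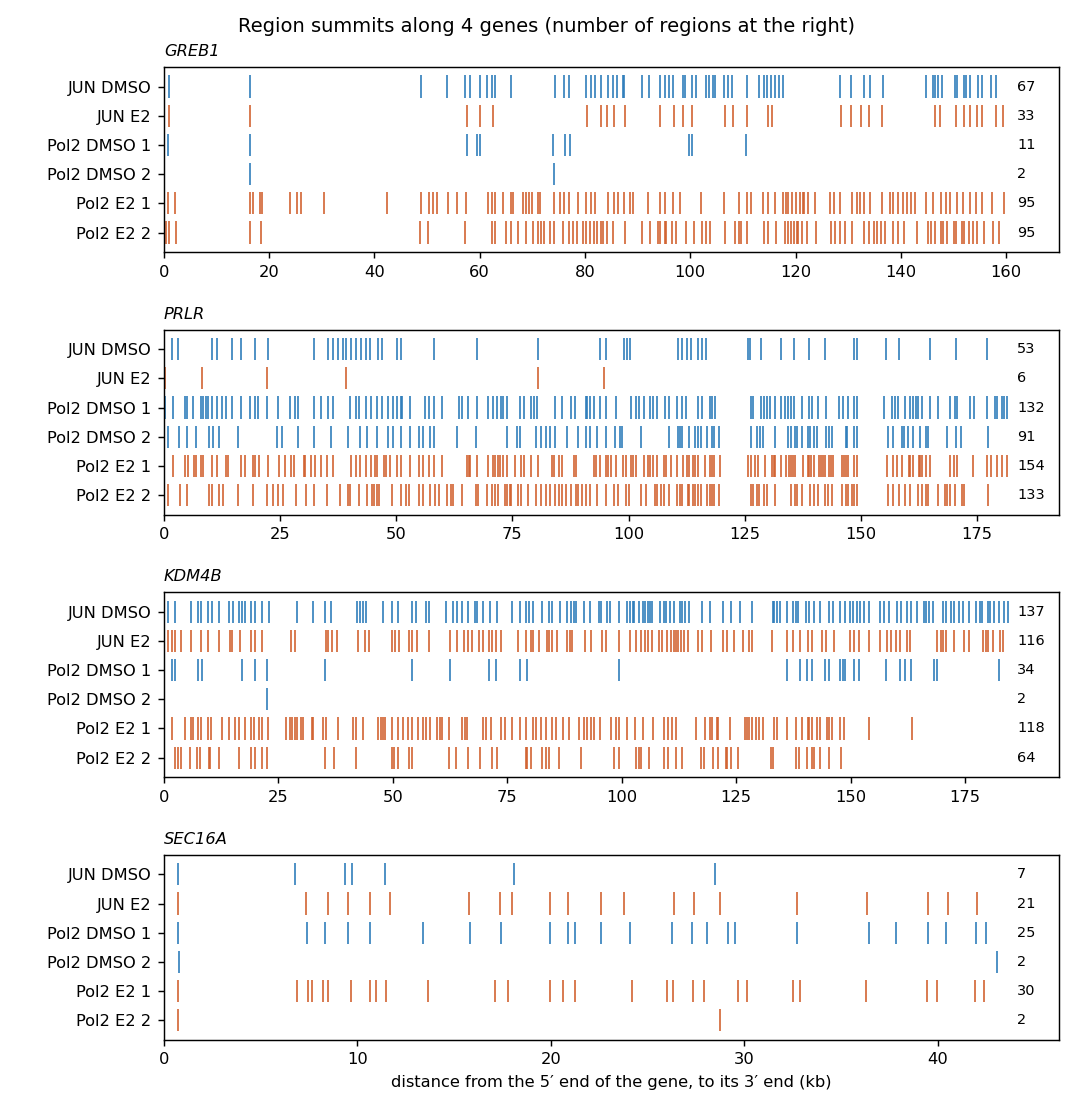
Summits of regions (ticks) along GREB1, PRLR, KDM4B and SEC16A in the 2 JUN and 4 Pol2 lists, by distance from the 5′ end of the gene in kb, with the number of regions at the right. At GREB1 the JUN lists (67 and 33) have fewer regions than Pol2 E2 (95 and 95) and more than Pol2 DMSO (11 and 2). Few JUN summits lie there before 48.8 kb. At PRLR the E2 list of JUN has 6 regions where all others have 53 or more.

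Among the 10 genes with the most E2-only regions, SEC16A and C7orf50 met the rule for more regions in the E2 list. SEC16A, which marks the exit sites of the endoplasmic reticulum (chr9:139334548-139378211), had 7 JUN regions under DMSO and 21 under E2, covering 8.46% and 23.2%, and Pol2 had 25 and 2 regions under DMSO and 30 and 2 under E2. C7orf50 had 7 and 22, with 36, 2, 21 and 3 for Pol2 in the same order. Of its 22 E2 regions, 20 overlapped Pol2 of DMSO replicate 1 and 12 that of E2 replicate 1. CBFA2T3, a transcriptional corepressor gene, had 17 and 29, and SBNO2 18 and 31, neither a 2-fold difference. CASZ1 (18 and 27) and TNRC18 (13 and 24) also stood among the 10 genes with the most E2-only regions and fell short of 2-fold.

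Pol2 was counted in the same genes as a measure the choice had not used. Among the 329 genes higher under DMSO, Pol2 replicate 1 had more regions under E2 in 209 and fewer in 73 (63.5% and 22.2%, against 47.5% and 35.1% of all 2692), and replicate 2 more in 121 and fewer in 107 (36.8% and 32.5%, against 38.6% and 19.4%). Among the 158 higher under E2, replicate 1 had more in 29 and fewer in 111 (18.4% and 70.3%) and replicate 2 more in 57 and fewer in 9 (36.1% and 5.70%). Relative to all 2692 genes, the share of genes with fewer Pol2 regions differed in direction between the replicates for both sets. The share with more was near that of all genes in replicate 2 for both sets. In the second set replicate 2 had only 138 Pol2 regions under DMSO and 217 under E2. The median G and C content was 47.8% in the first set and 58.6% in the second. When the 2692 genes were split into 3 groups of near equal size by G and C, 21.4%, 11.3% and 4.01% were higher under DMSO from the lowest group to the highest, and 0.892%, 3.68% and 13.03% under E2.

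Estrogen-induced genes had more JUN regions in the library labelled DMSO. The list of 40 held 261 regions under DMSO and 160 under E2, of which GREB1 made 67 and 33, and Pol2 had 191 and 107 under DMSO and 528 and 391 under E2. Of 28 members with at least 3 regions, 9 were higher under DMSO (32.1%, against 12.2% of all such genes) and 1 under E2. Besides GREB1 these were CA12, a carbonic anhydrase (13 and 3), FHL2, a LIM-domain cofactor (10 and 4), FKBP4, a chaperone partner of steroid receptors (10 and 3), IGFBP4, which binds insulin-like growth factors (7 and 3), PGR, the progesterone receptor (7 and 1), WWC1 (7 and 3), TPD52L1 (4 and 1) and XBP1 (4 and 0). ABCA3, a lipid transporter, had 3 and 6. By covered length 5 members were higher under DMSO and 0 under E2, and with lists of equal length 7 and 2. In the group of genes lowest in G and C, 7 of 12 members were higher under DMSO, in the middle group 2 of 8, and in the highest 0 of 8.

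Several of these genes had more Pol2 regions under E2 in both replicates. CA12 had 5 Pol2 regions in each DMSO library and 65 and 26 under E2, and all 13 of its JUN regions under DMSO overlapped Pol2 of E2 replicate 1 while 4 and 3 overlapped Pol2 under DMSO. PGR had 9 and 40 Pol2 regions under DMSO and 47 and 72 under E2. FHL2 had 7 and 1 against 48 and 25. RARA, the retinoic acid receptor, missed the rule with 31 and 23 JUN regions and carried Pol2 in all libraries (31, 6, 20 and 38). For XBP1 the strong region at its start was shared, and its summit fell outside the gene body in the E2 list, which limits a count by summits in short genes.

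Other lists also had more members higher under DMSO than under E2, and whether the estrogen list differs from them was not tested. Of abundant housekeeping transcripts 5 of 12 members with at least 3 regions were higher under DMSO and 0 under E2, among them ENO1, the glycolytic enolase (11 and 3), PPIA, cyclophilin A (7 and 1), PKM, pyruvate kinase (7 and 2), and the noncoding NEAT1 (8 and 3). Of luminal breast genes it was 5 of 11, among them ESR1, the estrogen receptor itself (8 and 2), ERBB3 (6 and 2) and CDH1 (5 and 2), with GATA3 at 15 and 10 below 2-fold. Cytosolic ribosomal protein genes had 8 of 27, with a median G and C content of 47.4%, and 176 regions under DMSO against 100 under E2. Over all genes the share higher under DMSO was 12.2%. By covered length 3 housekeeping, 2 luminal and 6 ribosomal genes were higher under DMSO, and with lists of equal length 4, 4 and 3.

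The AP-1 genes themselves showed little difference. JUN, JUNB, FOSB and ATF3 had equal numbers in both lists (1, 1, 1 and 2), FOSL2 had 3 and 2, JUND 2 and 0, and JDP2, a repressor of AP-1, 6 and 5. JUND is short, and JUN regions covered 77.2% of it under DMSO and 84.0% under E2, where no summit fell inside the gene. Of 14 AP-1 subunit genes 11 had a start-site region in each list, and none met the rule in either direction. Immediate-early genes, induced within minutes of a stimulus, held 28 and 26 regions, with NR4A1, an orphan nuclear receptor, at 3 and 6, and CCN1 at 3 and 0. CCN1 too had a start-site region in both lists, and 38.6% and 23.5% of it was covered. Of 18 textbook AP-1 target genes, 7 and 8 had a start-site region, CCND1 (cyclin D1) with 8 and 6 regions led them, and MMP1, MMP3, MMP9 and PLAU had none at their start sites. The 64 replication-dependent histone genes held 42 regions in each list.

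The motifs at summits differed between the classes. The AP-1 motif was in 3.78% (3.53 to 4.05) of shared, 8.00% (7.42 to 8.61) of DMSO-only and 2.84% (2.43 to 3.30) of E2-only windows. Outside start sites it was in 5.39%, 7.97% and 3.35%, against 5.90% to 8.78% of the 4 Pol2 lists and 26.2% and 23.3% of the Ishikawa JUN lists, there too counted outside start sites. In windows under 55% G and C the shares were 7.82%, 8.98% and 10.3% (117 E2-only windows), and between 55% and 65%, where most DMSO-only windows lay, they were 5.15%, 7.63% and 3.62%. In regions that no Pol2 list held, 537 shared, 1593 DMSO-only and 1440 E2-only, it was in 5.96% (4.11 to 8.31), 6.97% (5.77 to 8.33) and 2.71% (1.93 to 3.68), above all shared regions and near the whole class for the others. Of these shared regions 423 lay outside start sites, where the share was 6.86% (4.64 to 9.70). That interval includes the 5.39% of all shared regions outside start sites. The related palindrome TGACGTCA, the CRE that JUN and ATF pairs bind, was in 1.47%, 0.296% and 0.261%, and in 1.87% of protein-coding start sites.

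The AP-1 share was highest in the strongest regions of both lines, at different levels. Outside start sites, from the weakest to the strongest of 4 equal groups by fold enrichment, it went from 13.5% to 31.8% in Ishikawa JUN under E2 and from 20% to 32.9% under DMSO. In T-47D it went from 5.21% to 9.005% in the DMSO list and from 4.50% to 5.93% in the E2 list. The rise in the E2 list was not steady, with 3.64% in the second weakest group. Median G and C contents of the strongest groups were 60.2% (DMSO) and 66.7% (E2) in T-47D. In Ishikawa they were 52.2% and 53.7%, so the lines were compared at unlike composition, and its part was not tested.

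The ERE was found mostly in the DMSO library. It was in 37 DMSO-only windows (0.456%, 0.321 to 0.628), in 24 shared (0.117%, 0.0747 to 0.173) and in 2 E2-only (0.0348%, 0.00422 to 0.126), with sequences printed above. All protein-coding start sites held it in 0.0348%. The Pol2 lists held it in 0.0635% and 0.0658% under DMSO and 0.279% and 0.235% under E2, so among Pol2 libraries the E2 label went with more of it and among JUN libraries the DMSO label did. Between 55% and 65% G and C it was in 18 of 4573 DMSO-only windows (0.394%) and in 0 of 1907 E2-only windows, which allows a share of up to 0.193%. Under 55% it was in 17 of 3219 and 1 of 117, and at 65% or more in 2 of 320 and 1 of 3715, too few for an order. A forkhead motif (TGTTTAC), bound by FOXA1, was in 4.09% (3.67 to 4.55) of DMSO-only, 1.65% of shared and 0.680% of E2-only windows. The 4 Pol2 lists held it in 1.95% to 4.21%, LSD1 under E2 in 12.7% and protein-coding start sites in 1.42%. Its shares were not split by G and C content.

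**Figure D5:**
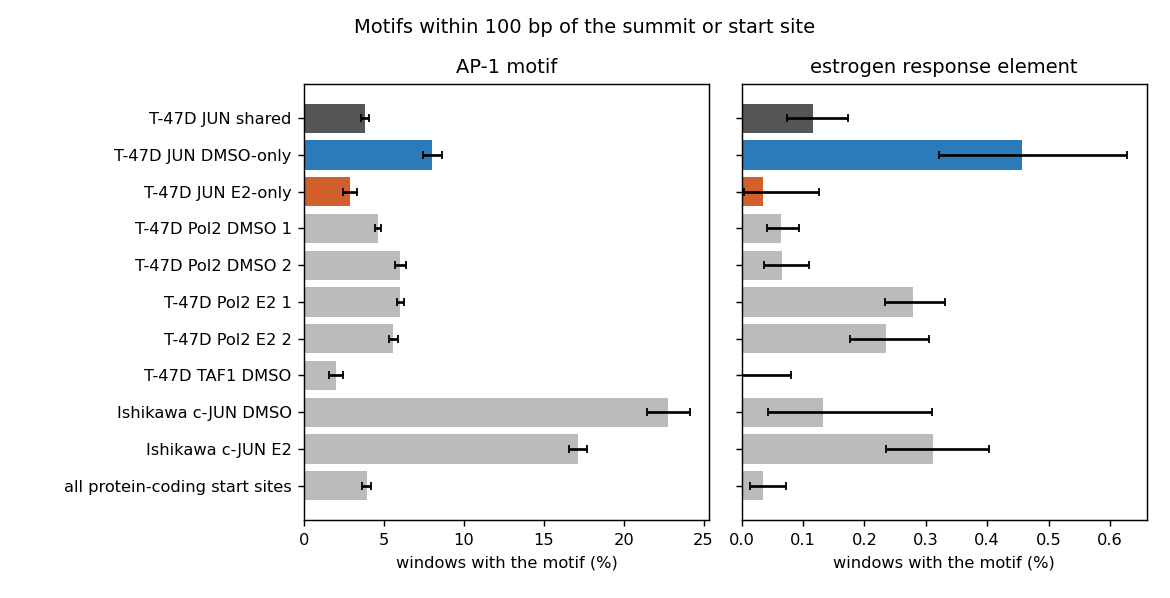
Share of windows (%) with an AP-1 motif (left) or an estrogen response element (right) within 100 bp of the summit, with exact 95% binomial intervals, for the JUN classes, other lists and all protein-coding start sites. For AP-1 the T-47D JUN classes (2.84% to 8.00%) lie near Pol2 and far below Ishikawa JUN (22.8% and 17.1%), and for the response element DMSO-only (0.456%) lies above the other classes.

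Other T-47D lists were held by the JUN libraries in different degrees. Of TAF1 regions under DMSO the JUN lists held 98.9% and 97.5%, and of MYC regions under E2 87.5% and 92.8%. Of 442 LSD1 regions under E2, 54.1% (49.3 to 58.8) were in the DMSO list and 26.5% (22.4 to 30.8) in the E2 list, with 152 in the DMSO list alone and 30 in the E2 list alone. Of H3K4me1 regions under DMSO, which mark enhancers, 25.4% and 16.7% were held. Of Ishikawa JUN regions under E2, 49.8% and 46.2% were held, and 36.8% of shared, 13.9% of DMSO-only and 7.25% of E2-only T-47D regions overlapped them.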

How the data were processed

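Peak lists from ChIP-seq of T-47D cells were used, with 45 lists for 49 samples in the series. Reads had been mapped by the authors with Bowtie 1.1.2 on hg19, which is GRCh37, and peaks of each library were called separately with MACS2 2.1.0.20140616, at a q-value cutoff of 0.05 in their methods. The deposited lists give a score, the fold enrichment (a ratio) at the summit, and −log10 p-values and q-values as the caller wrote them. The lowest −log10 p in the JUN lists was 10.1. The lists give no read depth; pileups were solved from fold enrichment and p-value within 0.1%, and the number of reads limits the precision of every share.

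Regions were classed by an overlap of 1 bp and placed by summit on GENCODE 44 mapped to GRCh37, as start site (250 bp), exon, intron, downstream (5000 bp) or distal. Gene counts used summits within the gene body, and a gene was called higher at a ratio of 2 and a difference of 3 regions. Motifs were searched on both strands in 201 bp windows, in which the 4 patterns do not exclude each other. Shares have exact binomial intervals, and the 4 Pol2 libraries were compared by an exact permutation test. Alternatives were other overlaps, thresholds, lists of equal length, other gene and place rules, and each Pol2 library left out. Python 3.11.15, numpy 2.4.6, pandas 2.3.3, scipy 1.17.1, pysam 0.24.0 and matplotlib 3.10.9 were used, and the scripts were tested on simulated data.

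Named were the 4 genes with the most JUN regions in each of 10 lists, estrogen-induced genes that met the gene rule, the 10 genes with the most DMSO-only, E2-only and total regions, and the 5 strongest regions of each class, with and without the AP-1 motif away from start sites. Other list members named, and the ERE regions, base composition groups, motif shares by strength and per-list gene alternatives, were chosen after their values were seen. The members and lists were chosen with earlier results of these data known.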

Additional observations from a re-analysis of the deposited data

Results flagged for a closer look

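The number of JUN regions moved in opposite directions in the 2 lines. In Ishikawa it went from 3768 under DMSO to 18311 under E2, a log2 ratio of 2.28, and in T-47D from 28703 to 24885, a log2 ratio of -0.21, so the lines differed by 2.49. By covered length both rose, from 1.48 to 8.56 Mb in Ishikawa and from 16.7 to 17.6 Mb in T-47D, and at a fold enrichment of at least 10 the T-47D ratio was 1.08, so the opposite direction held for region numbers at the deposited threshold. Within estrogen-induced genes the numbers were 23 and 104 in Ishikawa (2.18) and 261 and 160 in T-47D (-0.71), a difference of 2.88. Each arm was 1 library, and neither difference was tested.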

How the results depend on the processing

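The lists hold 1 JUN library per treatment, so differences between the labels cannot be told apart from differences between libraries, and base composition moved with them. Of 121 values under alternatives, 32 moved by less than their interval or 1.5 times, 87 moved and 2 reversed. The 2 reversed values were both the ratio of region numbers. Each value was judged alone, so an order between 2 values that turned was not counted as reversed. Such turns occurred for genes higher under DMSO or E2, for gene-body shares and for lost Pol2 regions. The causes were not tested.

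The ratio of E2 to DMSO region numbers turned to 1.05 by covered length and 1.08 at a fold enrichment of at least 10, and was 0.910 at a −log10 p of at least 20. With a reciprocal overlap of 50%, DMSO-only regions were 12882 and E2-only 9064. At a fold enrichment of at least 10, shared regions were 12697 and DMSO-only 3511.

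Gene-body shares of shared, DMSO-only and E2-only regions were 18.8%, 48.3% and 35.0% with 1000 bp either side of a start, 30.3%, 52.9% and 55.01% with protein-coding genes only, 26.2%, 57.9% and 49.8% by any overlap, and 27.4%, 58.7% and 52.8% at a −log10 p of at least 20. Start-site shares were 72.8%, 27.1% and 54.1%, then 51.0%, 10.0% and 25.1%, then 64.96%, 16.5% and 37.95%, and 61.5%, 14.01% and 32.9%. With protein-coding genes only, the gene-body order of DMSO-only and E2-only turned.

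Overlap with any Pol2 list ranged, leaving out each library in turn, from 89.8% to 97.4% for shared, 69.5% to 80.3% for DMSO-only and 39.0% to 74.9% for E2-only regions, where DMSO replicate 1 gave the lowest E2-only value. With the lists of DMSO replicate 1, DMSO replicate 2, E2 replicate 1 and E2 replicate 2 alone it was 95.5%, 51.8%, 89.6% and 64.6% for shared, 66.3%, 24.4%, 71.1% and 25.6% for DMSO-only, and 70.7%, 3.55%, 38.3% and 8.14% for E2-only. A reciprocal overlap of 50% gave 83.2%, 62.8% and 47.1%, and a −log10 p of at least 20 gave 98.4%, 83.9% and 83.5%.

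Leaving out each Pol2 library in turn, gained regions were held in 12.3% to 72.1% of cases by the DMSO list and 5.30% to 68.1% by the E2 list, and lost regions in 3.01% to 51.6% and 1.18% to 28.6%. A reciprocal overlap of 50% gave 20.1% and 7.50% of gained and 18.8% of lost regions in the E2 list, and equal length gave 22.4% of gained regions in the DMSO list.

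Genes higher under DMSO and under E2 were 138 and 265 by covered length, 192 and 310 with equal lists, and 75 and 39 at a difference of 5.

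AP-1 shares of shared, DMSO-only and E2-only windows were 1.90%, 3.88% and 1.38% within 50 bp. Adding TGACGTCA gave 5.22% of shared, and a −log10 p of at least 20 gave 8.73% of DMSO-only windows. Of alternatives chosen after seeing the data, regions outside start sites gave 5.39% of shared and 3.35% of E2-only, and windows under 55% G and C gave 7.82%, 8.98% and 10.3%.

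With the replicate number as a block, the Pol2 differences stayed 3.02 points (exact permutation p = 0.5) and -13.9 points (exact permutation p = 1), where 0.5 is the smallest p possible. With 4 Pol2 lists of equal length they were 0.81 points and -12.9 points (exact permutation p = 1 for both). Deviations of same-numbered Pol2 libraries correlated at r = 0.33 over 32457 merged JUN regions, but with 2 pairs the samples share only a number.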

Other observations

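The lists labelled H3K27me3, a mark of silenced genes, held 6305 regions under DMSO and 107 under E2, and whether the DMSO list is that mark was not tested. Both lists came from the longer treatment used for histone marks, not from that of JUN. Of the 6305 regions, 98.3% (97.97 to 98.6) were in the JUN list labelled DMSO and 95.1% (94.6 to 95.7) in that labelled E2. Of 107 H3K27me3 regions under E2, 0 were in the DMSO list (exact 95% upper limit 3.39%) and 3 in the E2 list. Of MAX regions under E2, the partner of MYC, 97.4% and 98.7% were held.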
